A study of Homo sapiens with 36 samples.

Results

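The effect of atirmociclib at 2 µM on the transcriptome of LNCaP cells was compared between 24 h and 72 h of treatment. For each gene, the difference between atirmociclib and vehicle at 24 h was subtracted from the same difference at 72 h, on the log2 scale of the normalised read count plus 1, so that a positive value marks an effect that was higher at 72 h. This contrast drew on 12 of the 36 libraries of the series, with 3 biological replicates of each of 4 groups: vehicle at 24 h, atirmociclib at 2 µM at 24 h, vehicle at 72 h and atirmociclib at 2 µM at 72 h. It was tested in 16850 of the 29872 genes listed. LNCaP is an established human prostate cancer line that responds to androgen, and all 4 groups were the same line with no other agent added. The labels give the vehicle a dose of 2 µM as well. Fewer cells were plated for 72 h than for 24 h, and the effect of plating density cannot be told apart from that of time.

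Atirmociclib is classed in the paper as a CDK4-selective inhibitor. In the paper's kinase assays, atirmociclib also inhibited other cyclin-dependent kinases. The paper proposes that this broader inhibition contributes to its activity in prostate cancer cells. Which kinase lies behind each effect described here was not tested. With D-type cyclins, CDK4 phosphorylates the retinoblastoma protein RB and thereby releases E2F transcription factors, which switch on the genes of DNA synthesis. When RB is not phosphorylated, cells stop in G1, and the genes of mitosis are also kept off by complexes that bind the cell cycle genes homology region, or CHR, in their promoters.

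Total normalised counts ranged from 20675156 to 22692555 per library and were higher in each atirmociclib group than in the vehicle group of the same time. Mitochondrially encoded transcripts took 6.45% to 6.60% of the total with vehicle and 7.28% to 7.70% with atirmociclib at 24 h, and 6.76% to 7.42% and 8.33% to 8.66% at 72 h. All 12 luminal prostate markers were present in every group. Basal, neuroendocrine, fibroblast, endothelial and immune marker lists summed to at most 1108 normalised counts in any library. The depth in reads could not be recovered from the normalised values.

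Promoters of 8 genes that atirmociclib lowered are shown here because genes of their lists carry short sequences that are known binding sites of cell cycle regulators. Each stretch is written 5′ to 3′ on the strand of its gene, from the RefSeq table of build GRCh38.p14, and lies upstream of the RefSeq start and outside exons of GENCODE release 44. Capitals mark the motif searched on both strands: the E2F motif TTTCCCGC (or its reverse complement GCGGGAAA) for genes of DNA replication, the CHR motif TTTGAA for genes of mitosis, and CCAAT (or ATTGG), the site of NF-Y, for histone genes.
GINS2, chr16:85688955-85689030, minus strand: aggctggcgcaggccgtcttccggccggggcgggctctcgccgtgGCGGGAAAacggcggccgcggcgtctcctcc
CDT1, chr16:88803709-88803788, plus strand: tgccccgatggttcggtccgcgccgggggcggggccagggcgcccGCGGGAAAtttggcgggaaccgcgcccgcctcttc
PCNA, chr20:5126629-5126726, minus strand: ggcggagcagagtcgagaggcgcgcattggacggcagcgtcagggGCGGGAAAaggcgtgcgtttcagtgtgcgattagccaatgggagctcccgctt
MKI67, chr10:128126424-128126497, minus strand: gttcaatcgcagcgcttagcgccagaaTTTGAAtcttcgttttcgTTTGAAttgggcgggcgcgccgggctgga
ESPL1, chr12:53268223-53268298, plus strand: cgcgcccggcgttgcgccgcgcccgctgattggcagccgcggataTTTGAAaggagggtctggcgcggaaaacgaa
NCAPG, chr4:17810899-17810978, plus strand: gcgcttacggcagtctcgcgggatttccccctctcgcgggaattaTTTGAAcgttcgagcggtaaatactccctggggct
H2BC14, chr6:27814900-27814994, plus strand: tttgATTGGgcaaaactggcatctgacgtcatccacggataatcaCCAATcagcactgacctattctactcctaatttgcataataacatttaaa
H1-5, chr6:27867592-27867686, minus strand: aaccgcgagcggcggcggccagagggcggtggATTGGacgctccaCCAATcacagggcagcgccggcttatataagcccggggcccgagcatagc

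The CHR motif lay within 250 bases upstream of the start in 33 of the 70 mitosis genes with a RefSeq promoter (47.1%), against 13.6% of all 27305 promoters and 8.54% of the 11872 promoters of genes tested. The 33 mitosis genes with the motif had a median difference of 1.16 and the 37 without it of 0.898. An E2F motif, TTTCCCGC or TTTGGCGC, was found in 12 of 48 DNA replication genes (25%) and in 1.96% of all promoters, and the median differences with and without it were 0.612 and 0.56. CCAAT stood in 36 of 43 histone promoters (83.7%), against 33% of all promoters. These matches are descriptions of the letters in the window and not sites of binding.

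The effect of atirmociclib was higher at 72 h than at 24 h in 619 genes (3.67% of those tested) and lower in 109 genes (0.647%), at an adjusted p of at most 0.05 and a log2 difference of at least 1 in size (limma). Higher calls thus made up 85% of the total, and 69.6% after quantile normalisation, which gave 442 higher and 193 lower. Atirmociclib had lowered 905 genes (5.37%) and raised 219 genes (1.3%) at 24 h, whereas at 72 h it lowered 615 (3.65%) and raised 635 (3.77%). Of the 905 genes lowered at 24 h, 369 (40.8%) were also lowered at 72 h. The median effect of the 905 moved from -1.63 to -0.89. They were picked on the 24 h values, so part of this move can come from the choice. The 615 genes lowered at 72 h had medians of -1.41 at 24 h and -1.45 at 72 h. Of the 635 genes raised at 72 h, 88 (13.9%) had been raised at 24 h. Across all genes tested, the effects at the 2 times had a correlation of 0.465, or 0.625 over the 12388 genes with a mean of at least 50 normalised counts, a description across genes that share no libraries between the times.

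**Figure D1:**
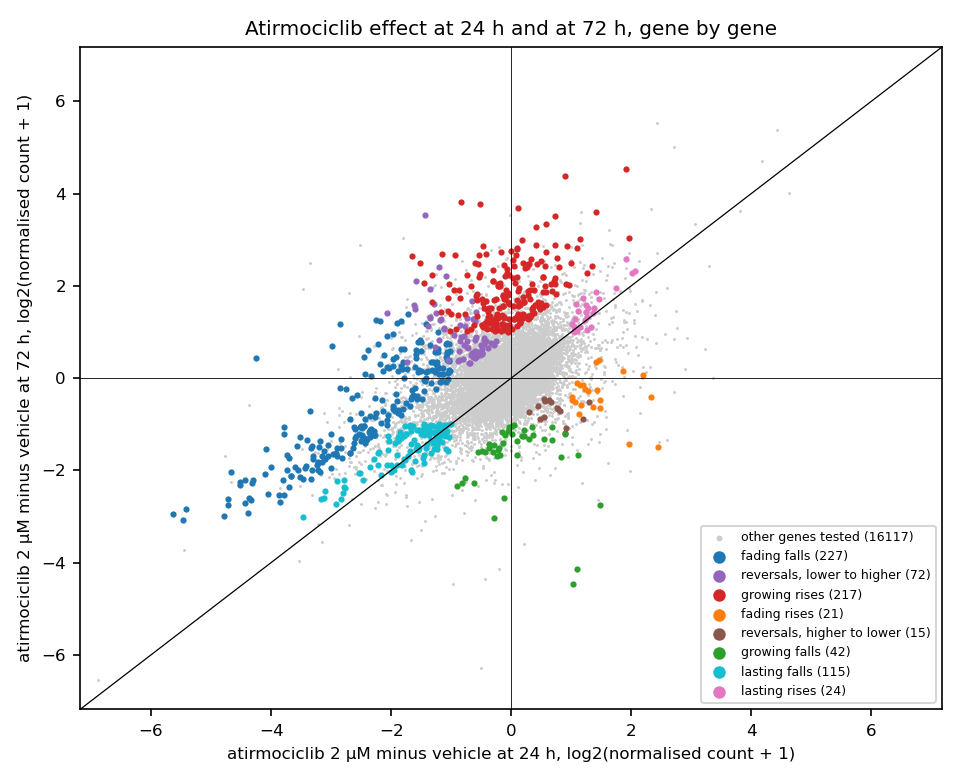
Effect of atirmociclib at 2 µM on each gene tested at 24 h (horizontal axis) and at 72 h (vertical axis), both as log2 differences from vehicle of the same time, with the diagonal marking equal effects. The 227 fading falls lie above the diagonal on the left, the 217 growing rises above it in the upper middle, and the 115 lasting falls along it.

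The genes were sorted by these calls into classes that do not overlap. A fading fall was called lower at 24 h, had a difference called higher and did not rise past the adjusted p at 72 h. A growing rise was called higher at 72 h, had a difference called higher and did not fall past the adjusted p at 24 h. A reversal had a called difference and passed the adjusted p in opposite directions at the 2 times. There were 227 fading falls (1.35%), 21 fading rises (0.125%), 217 growing rises (1.29%), 42 growing falls (0.249%), 72 reversals from lower to higher (0.427%) and 15 from higher to lower (0.089%). Lasting falls, called at both times with a difference whose 95% interval stayed within 1 of 0, numbered 115 (0.682%), and lasting rises 24 (0.142%). The values that chose a class are given below as a description. At the threshold itself, the gene ENSG00000290683 stood just inside with a difference of 1.0004 and ADCY6 just outside with 0.99934.

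Genes of mitosis made up 41 of the 227 fading falls, more than any other list, and 9 more were lasting falls. All 84 mitosis genes on the list were lower with atirmociclib past the adjusted p at 24 h, against 17% of all genes, and 83 at 72 h, against 19.6%. The effect then shrank: the difference was higher past the adjusted p in 73 of 84, against 11.7% of all genes, and the list's median effect went from -2.27 to -1.28 with a median difference of 0.975. No mitosis gene was lower in the difference in the limma fit, and 1 was at an unadjusted p of at most 0.05. Since these are bulk libraries, fewer cycling cells and less of each transcript per cycling cell cannot be told apart.

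MKI67, which encodes the proliferation antigen Ki-67 (chr10:128096659-128126423, minus strand), stood at 9181, 9371 and 8954 normalised counts with vehicle and at 794, 657 and 626 with atirmociclib at 24 h. At 72 h it stood at 9672, 9199 and 9766 with vehicle and at 2372, 2231 and 2626 with atirmociclib. The vehicle libraries were alike at both times and far above every atirmociclib library, while the atirmociclib libraries at 72 h were all above those at 24 h. Its effect moved from -3.73 to -1.99, a difference of 1.74 ± 0.10 (SE, adjusted p = 8.2e-14). TOP2A, the topoisomerase that untangles replicated chromosomes, was at 3577, 3523 and 3512 with vehicle and 350.5, 392 and 249 with atirmociclib at 24 h, and at 3293, 3710.2 and 3639 and 795, 941 and 1038 at 72 h, with a difference of 1.50 ± 0.17 (adjusted p = 1.1e-07). These 4 groups did not overlap between vehicle and atirmociclib at either time.

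The largest differences in mitosis genes were in PIF1, a DNA helicase, and in the kinesins KIFC1 and KIF20A. PIF1 stood at 270.5, 322 and 329 with vehicle and 45.3, 10.96 and 9.57 with atirmociclib at 24 h, and at 327, 274 and 214 and 87.8, 94.3 and 93.7 at 72 h. One of its 24 h atirmociclib libraries lay well above the others, and all were below those at 72 h. The difference was 2.56 ± 0.45 (adjusted p = 7.7e-05), and it was 2.10 ± 0.25 in KIF20A and 2.10 ± 0.18 in KIFC1. Not all members moved alike: PTTG1, the securin that holds sister chromatids together until anaphase, was at 634, 445 and 485 with atirmociclib at 24 h and at 411, 415 and 390.4 at 72 h, against vehicle libraries of 1611, 1613 and 1669 and 1815, 1615 and 1585. Its difference of -0.38 ± 0.15 did not pass the test (adjusted p = 0.074), and it was chosen for description after its values were seen.

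**Figure D2:**
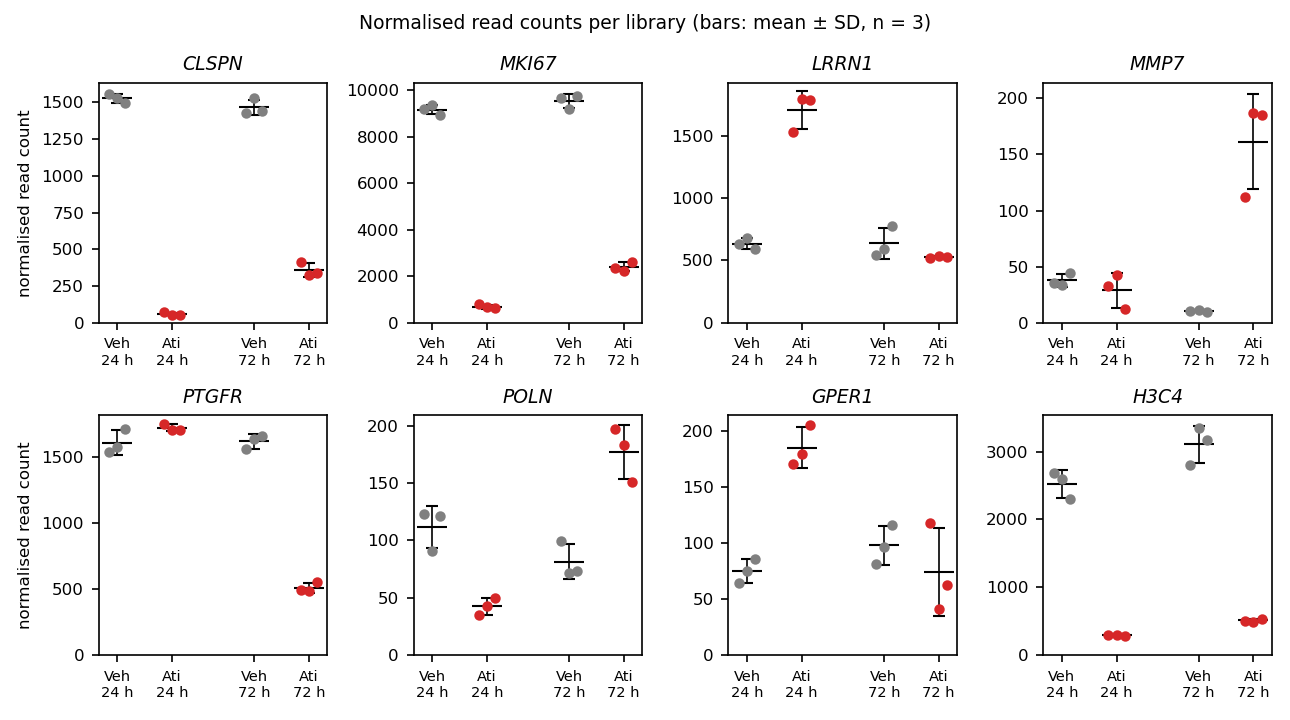
Normalised read counts of 8 genes in the 12 libraries, with grey points for vehicle, red points for atirmociclib at 2 µM and bars for the mean ± SD of 3 replicates. CLSPN, MKI67 and H3C4 remained below vehicle at both times, POLN passed from below vehicle at 24 h to above it at 72 h, MMP7 lay above vehicle in every library at 72 h, and LRRN1, GPER1 and PTGFR came down from 24 h to 72 h with atirmociclib.

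Genes of DNA replication followed the same course with a smaller shift. Of 56 members, 50 were lower at 24 h and 45 at 72 h, against 17% and 19.6% of all genes. The difference was higher in 35 and lower in 1, against 11.7% and 9.96%, with a median of 0.586. CLSPN encodes claspin, which links stalled replication forks to the checkpoint kinase CHEK1 (chr1:35720218-35769978, minus strand). It stood at 1555, 1530.3 and 1498 with vehicle and 70.3, 55.8 and 53.5 with atirmociclib at 24 h, and at 1431, 1527 and 1441 and 413, 323 and 335 at 72 h. The atirmociclib libraries of the later time were thus all higher than those of the earlier, and all below vehicle. The difference of 2.62 ± 0.17 (adjusted p = 1.9e-12) was the largest on the list. MCM10 and CDC45, which act in activating the replicative helicase, differed by 1.82 ± 0.21 and 1.82 ± 0.24. In contrast, MCM2, a subunit of that helicase, moved from -1.50 to -0.85 (difference 0.66 ± 0.09, adjusted p = 1.0e-06).

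Of the 3 replication genes whose promoters are printed above, CDT1, the licensing factor, was at 295, 298 and 338 with atirmociclib at 24 h and 534, 462 and 679.9 at 72 h, against vehicle libraries of 1288, 1236 and 1266 and 1243, 1348 and 1292. PCNA, the sliding clamp, was at 657, 683 and 683 and 1131, 982 and 1083, against 3248, 3239.99 and 2960.3 and 3316, 3373 and 3219.7. Both remained below vehicle in every library at both times. Their differences were 0.80 ± 0.19 and 0.59 ± 0.09, and that of GINS2 was 0.82 ± 0.19.

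Of 14 enzymes of deoxynucleotide synthesis, 3 passed the test with a higher difference and 2 with a lower one, against 11.7% and 9.96% of all genes, about 1 gene more than the background each way. RRM2, the small subunit of ribonucleotide reductase, stood at 3728, 3797 and 4113 with vehicle and 204, 211 and 131 with atirmociclib at 24 h, and at 4362, 3998 and 3624 and 967, 819 and 822 at 72 h. All atirmociclib libraries of 72 h were above those of 24 h and below vehicle, for a difference of 2.23 ± 0.22 (adjusted p = 9.1e-09). The thymidine kinase TK1 and the thymidylate synthase TYMS differed by 1.02 ± 0.09 and 0.80 ± 0.12. RRM2B, the p53-induced form of the same subunit, went the other way: it was at 1207, 1383 and 1262 with atirmociclib at 24 h and 842, 869.8 and 1119 at 72 h, against vehicle libraries of 847, 908 and 801 and 1198, 887 and 1155, a difference of -0.78 ± 0.19 (adjusted p = 0.0035). NME1 was the other member with a lower difference, at -0.46 ± 0.07.

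Repair by homologous recombination held 22 of 27 members with a higher difference and none with a lower one, against 11.7% and 9.96% of all genes. None was lower at an unadjusted p of at most 0.05 either (limma). Of the 27, 11 were fading falls, against 1.35% of all genes. CHEK1 was at 980.1, 1111 and 983 with vehicle and 118, 132 and 102 with atirmociclib at 24 h, and at 810.3, 958 and 1095 and 281, 311 and 353 at 72 h. POLQ, the polymerase of an alternative end-joining route, differed by 1.40 ± 0.13, and its effect went from -1.91 at 24 h to -0.50 at 72 h. The list's median effect went from -1.8 to -0.976.

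Of 33 regulators of the G1/S transition, 11 had a higher difference, against 11.7% of all genes, and 3 a lower one, near the 9.96% of all genes. Among them, the 7 fading falls were MYBL2, FBXO5, E2F7, E2F2, CCNA2, CCNE2 and E2F8. CCNE2, or cyclin E2, stood at 525, 722 and 682 with vehicle and 31.7, 26.8 and 22.8 with atirmociclib at 24 h, and at 632, 543 and 485 and 101, 116 and 114 at 72 h. No library overlapped between vehicle and atirmociclib, and the difference was 2.21 ± 0.33 (adjusted p = 9.2e-06). On the opposite strand, CCNE2 shares exonic bases with INTS8, 1629 in the longest stretch, and with ENSG00000272509. INTS8 had a difference of 0.17. CCNE1, or cyclin E1, was at 415, 429.5 and 466 with vehicle and 292, 246 and 349 with atirmociclib at 24 h. At 72 h it was at 397, 518 and 484 and 499, 477 and 499. The groups were apart at 24 h and overlapped at 72 h, and its effect moved from -0.57 to 0.09 (difference 0.66 ± 0.16, adjusted p = 0.0028).

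Of the target and its pathway, CDK4 itself was at 2267, 2328 and 2409.7 with vehicle and 2415, 2490.4 and 2315 with atirmociclib at 24 h, and at 2265, 2590.03 and 2404 and 2508, 2228 and 2125 at 72 h, so that all groups overlapped (difference -0.13, 95% interval -0.30 to 0.05, adjusted p = 0.31). CCND1, or cyclin D1, was higher with atirmociclib in every library, by 0.70 at 24 h and 0.58 at 72 h, and its difference of -0.12 (95% interval -0.25 to 0.01) did not pass the test. RB1 had a difference of 0.23 (95% interval 0.01 to 0.45, adjusted p = 0.12). E2F1 and FOXM1, the transcription factors that drive S phase and mitosis, remained called lower at both times: E2F1 went from -1.69 to -1.06 and FOXM1 from -1.88 to -1.37, with differences of 0.63 ± 0.11 and 0.51 ± 0.09.

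Replication-dependent histones, made in S phase for packaging new DNA, fell furthest at 24 h. Of 48 tested, 45 were lower at 24 h and 46 at 72 h, against 17% and 19.6% of all genes. The difference was higher in 25 and lower in 3, against 11.7% and 9.96%, with a median of 0.473. The 13 histone genes among the fading falls had effects of -5.64 to -3.78 at 24 h and of -3.08 to -2.51 at 72 h, and their SD across genes went from 0.598 to 0.181. These genes were chosen on the same effects, so the narrowing is no test. Over all 48 tested histones the SD went from 1.49 to 1.13. The 24 among the lasting falls had medians of -2.34 and -2.06. H1-5, a linker histone, stood at 9112, 8968 and 8635 with vehicle and 188, 219 and 192 with atirmociclib at 24 h, and at 10804, 11189.5 and 11465 and 1224, 1318 and 1420.1 at 72 h. Every 72 h atirmociclib library was thus above every 24 h one and below every vehicle library. Its difference was 2.39 ± 0.13 (adjusted p = 6.1e-14).

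H2BC14, a core histone, was at 2949, 2712 and 2973 with vehicle and 57.4, 55.9 and 91.5 with atirmociclib at 24 h, and at 3529, 3449 and 3820.1 and 499, 474 and 525 at 72 h, a difference of 2.57 ± 0.20 (adjusted p = 6.0e-11). H3C4, in contrast, was at 297, 299 and 277 and 508, 492 and 532 with atirmociclib, against vehicle libraries of 2692, 2591 and 2295 and 2809.7, 3347 and 3169, and remained called lower, with effects of -3.11 and -2.60. H3C12 gave the largest difference of any fading fall with a mean of at least 50, at 2.70 ± 0.57, but its 24 h atirmociclib libraries stood at only 3.07, 4.31 and 0, it shares 346 exonic bases with H2AC17, and its difference was 1.19 with a pseudocount of 8. Reads of histone genes can be shared between copies: 11 of the 48 have a near-identical stretch in another gene of the table, and the values of H4C12 and H4C14, whose copies are H4C11 and H4C15, are uncertain. With vehicle, H4C12 stood at 0, 359.7 and 0 at 24 h, and H4C14 stood at 5397, 12680.3 and 2256 at 72 h.

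Genes outside the cell cycle faded as well. The UGT2B enzymes, which conjugate androgens with glucuronic acid and are repressed by androgen in LNCaP cells, were among them. UGT2B28 stood at 290.2, 279.7 and 215 with vehicle and 19.4, 17.7 and 16.7 with atirmociclib at 24 h, and at 201, 241 and 189.9 and 103, 75.5 and 90.7 at 72 h, a difference of 2.56 ± 0.39 (adjusted p = 1.2e-05). UGT2B10, UGT2B11 and UGT2B15 were fading falls too, with differences of 1.79 ± 0.40, 1.54 ± 0.19 and 1.52 ± 0.12, and UGT2B17 a lasting fall with 0.72 ± 0.09. In all 5 the atirmociclib libraries were below vehicle at both times. UGT2B10 and UGT2B11 hold a near-identical stretch of 312 bases, so reads may be split between them. Of the 17 androgen-repressed and glucuronidation genes as a whole, 11 had a higher difference and 1 a lower one, OPRK1. The shares of all genes were 11.7% and 9.96%. The median difference of the 17 genes was 0.723 although their median effect went from 0.199 to -0.46.

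MAN1A1, a mannosidase of the Golgi that trims N-glycans, returned to vehicle. It stood at 67.6, 74.0 and 82.4 with vehicle and 9.10, 6.51 and 14.1 with atirmociclib at 24 h, and at 109, 121 and 132 and 97.2, 112 and 104 at 72 h. The groups were far apart at 24 h and overlapped at 72 h, and the effect went from -2.85 to -0.21 (difference 2.64 ± 0.43, adjusted p = 3.4e-05). Of the 227 fading falls, 201 were protein-coding (88.5%), against 78.8% of all genes tested.

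Rises that faded were few. The 21 fading rises dropped to 12 without replicate 1 of atirmociclib at 24 h or without replicate 1 of atirmociclib at 72 h, and only 3 had a mean of at least 50 normalised counts. LRRN1, a leucine-rich repeat membrane protein of neurons (chr3:3799431-3849834, plus strand), stood at 631, 682 and 593 with vehicle and 1533, 1798 and 1791 with atirmociclib at 24 h. At 72 h it stood at 547, 589 and 781 and 523, 537 and 526. All 3 atirmociclib libraries were above vehicle at 24 h and all 3 below it at 72 h, and the difference was -1.68 ± 0.17 (adjusted p = 6.1e-09).

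In ABCC6, a transporter, vehicle rose between the times while the atirmociclib libraries overlapped. It was at 17.9, 21.7 and 33.4 with vehicle and 41.4, 53.1 and 67.8 with atirmociclib at 24 h, and at 72.3, 96.3 and 92.7 and 57.6, 92.9 and 86.2 at 72 h (difference -1.30 ± 0.33, adjusted p = 0.0043). It has a near-identical stretch of 1238 bases in the pseudogene ABCC6P1. FRAS1, an extracellular matrix protein, had a difference of -1.07 ± 0.38 that barely passed (adjusted p = 0.042) and did not with the replicate block (adjusted p = 0.051), with the 12 libraries alone (adjusted p = 0.062) or with no filter (adjusted p = 0.076). Its call was also lost without any 1 of 7 libraries: replicate 1 or 3 of atirmociclib or of vehicle at 24 h, replicate 2 or 3 of atirmociclib at 72 h and replicate 2 of vehicle at 72 h, with values of -1.13 to -0.77 and adjusted p of 0.050 to 0.16.

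Reversals from lower to higher numbered 72, with a median effect of -0.71 at 24 h and 0.82 at 72 h. TUBA1A, an alpha-tubulin abundant in neurons, stood at 228, 205 and 252 with vehicle and 147, 146 and 138 with atirmociclib at 24 h, and at 148, 156 and 146 and 484, 488 and 469 at 72 h. Atirmociclib was below vehicle in every library at 24 h and above it in every library at 72 h. The difference was 2.33 ± 0.14 (adjusted p = 4.4e-13). TUBA1A shares a near-identical stretch of 377 bases with TUBA1C, whose own difference was 0.39. TUBB3, a beta-tubulin of neurons, also reversed, from -0.24 to 1.12 (difference 1.36 ± 0.13, adjusted p = 1.9e-09).

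EPHA3, an ephrin receptor, was at 459, 533 and 523 with vehicle and 143, 148 and 159 with atirmociclib at 24 h, and at 465, 459 and 473 and 611, 582 and 595 at 72 h, so that vehicle was steady and the atirmociclib libraries passed from below to above it (difference 2.10 ± 0.15, adjusted p = 1.7e-11). CYP3A5, a steroid-metabolising cytochrome, went from -1.13 to 1.09. POLN, a translesion polymerase (chr4:2071918-2242121, minus strand), stood at 123, 91.1 and 121 with vehicle and 34.6, 42.4 and 50.03 with atirmociclib at 24 h, and at 99.3, 71.4 and 73.6 and 197, 184 and 151 at 72 h. Its groups did not overlap at either time, and the difference was 2.50 ± 0.28 (adjusted p = 8.3e-08). On the same strand, POLN shares exonic bases with ENSG00000290263, 501 in the longest stretch, and with HAUS3. HAUS3 had a difference of 0.25 (adjusted p = 0.13).

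Fewer genes reversed from higher to lower, 15 in all. GPC6, a cell-surface proteoglycan, stood at 77.7, 97.8 and 64.7 with vehicle and 163, 137 and 148 with atirmociclib at 24 h, and at 59.6, 59.6 and 61.5 and 45.8, 17.2 and 27.8 at 72 h. GPER1, a membrane oestrogen receptor, was at 63.9, 74.9 and 86.1 and 170.5, 179 and 205 at 24 h, and at 81.2, 96.8 and 116 and 117, 41.2 and 62.9 at 72 h. The GPC6 groups were apart at both times, whereas in GPER1 1 atirmociclib library lay above all vehicle libraries at 72 h. The differences were -1.98 ± 0.30 and -1.82 ± 0.29 (adjusted p = 8.7e-06 and 1.8e-05). CNBD2, ECHDC1 and SMAD9, the last a signal transducer of bone morphogenetic proteins, differed by -1.44 ± 0.21, -1.40 ± 0.28 and -1.05 ± 0.14.

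Growing rises numbered 217 and were of low abundance, with a median of 49.5 normalised counts against 369 over all genes tested. MMP7, a matrix metalloproteinase (chr11:102520508-102530750, minus strand), stood at 35.4, 33.5 and 44.6 with vehicle and 32.6, 42.5 and 12.1 with atirmociclib at 24 h, and at 10.6, 11.2 and 9.93 and 112, 187 and 185 at 72 h. Vehicle and atirmociclib overlapped at 24 h and were far apart at 72 h, where vehicle itself had a change of -1.74 on the log2 scale from 24 h (adjusted p = 6.7e-04). The difference was 4.30 ± 0.46 (adjusted p = 3.1e-08). OR51E1, an olfactory receptor expressed in prostate, stood at 35.1, 28.5 and 20.3 with vehicle and 133, 133 and 66.1 with atirmociclib at 24 h, and at 4.79, 6.75 and 4.58 and 108, 177 and 162 at 72 h. Here the atirmociclib libraries overlapped between the times while vehicle dropped, and the difference was 2.63 ± 0.33 (adjusted p = 3.9e-07).

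ANGPT2 and NOS3, an angiopoietin and the endothelial nitric oxide synthase, also rose at 72 h. ANGPT2 was at 27.4, 43.7 and 30.6 with vehicle and 104, 115 and 20.5 with atirmociclib at 24 h, with 1 low atirmociclib library, and at 10.7, 7.54 and 14.7 and 194, 255 and 280.4 at 72 h (difference 3.47 ± 0.58, adjusted p = 4.5e-05). NOS3 was at 67.8, 68.1 and 79.9 and 47.1, 40.8 and 21.2 at 24 h, and at 23.6, 41.2 and 47.7 and 149, 150.03 and 154 at 72 h (difference 3.08 ± 0.66, adjusted p = 8.6e-04). ANGPT2 shares 658 exonic bases with MCPH1 and NOS3 297 with ATG9B, each on the opposite strand. The summed level of 5 endothelial markers moved with them. It was 259 to 397 in vehicle and 275 to 385 in atirmociclib libraries at 24 h, and 185 to 252 and 519 to 582 at 72 h. VWF alone carried that sum, since CDH5 was at 0 in all 12 libraries and PECAM1, KDR and TEK were at no more than 1.77. The part of such cells in these rises was not tested.

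Of the 217 growing rises, 3 were androgen response genes. On the list of 54, atirmociclib raised 34 at 24 h, against 18% of all genes, and 41 at 72 h, against 20.2%. The difference was higher in 19 and lower in 7, against 11.7% and 9.96% of all genes, and its median of 0.12 was 0.011 among members with a mean of at least 100. KLK3 and TMPRSS2 were not among the 3, since their differences were under 1. KLK3, which encodes prostate-specific antigen (chr19:50854915-50860764, plus strand), stood at 23132, 24802 and 22731 with vehicle and 32870.4, 30665 and 27660.1 with atirmociclib at 24 h, and at 20972, 20799 and 19802 and 48388, 52456 and 54148 at 72 h. Atirmociclib was above vehicle in every library, and by more at 72 h, with effects of 0.37 and 1.33 and a difference of 0.97 ± 0.07 (adjusted p = 2.9e-11). TMPRSS2, a serine protease under androgen control, was at 5672, 6056 and 5691 and 15163, 13587 and 12759 at 24 h, and at 5129, 4504 and 4205 and 18747, 20755 and 20223 at 72 h (difference 0.86 ± 0.10, adjusted p = 1.6e-07).

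TRPM8, an androgen-induced ion channel, differed by 1.14 ± 0.23, and vehicle itself had a change of -0.61 (adjusted p = 0.016). TARP, a transcript of the T-cell receptor gamma locus expressed in prostate, reversed from -0.87 to 0.59 (difference 1.46 ± 0.19), and its reads may be shared with TRGC1, a near-identical neighbour. DBI and ODC1 had the lowest differences, -0.56 ± 0.09 and -0.50 ± 0.06.

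Growing falls numbered 42, among them 4 genes of the ATF4 response. ATF4 is the transcription factor that cells use to restore amino acids and to answer stress of the endoplasmic reticulum. On the list of 46 genes of these responses, the difference was lower in 17 and higher in 6, against 9.96% and 11.7% of all genes, so that the higher count was near the background. The 17 were ASNS, CHAC1, PCK2, SLC7A11, PHGDH, GARS1, PSAT1, TRIB3, SARS1, CEBPB, ATF4, PSPH, STC2, MTHFD2, WARS1, SHMT2 and CEBPG. Among these, PHGDH, PSAT1, PSPH and SHMT2 make serine and glycine, ASNS makes asparagine, SLC7A11 imports cystine, and GARS1, SARS1 and WARS1 charge tRNAs. STC2 no longer passed the adjusted p without any 1 of 7 libraries (differences of -0.51 to -0.38, adjusted p of 0.054 to 0.14). It also did not pass with no filter, after quantile normalisation or with no trend (adjusted p of 0.056 to 0.068). These 7 libraries were replicate 1 of atirmociclib and 2 of vehicle at 24 h, replicates 2 and 3 of atirmociclib at 72 h and each vehicle replicate at 72 h. The 6 that were higher were CRELD2, CALR, PDIA4, HSPA5, HSP90B1 and MANF, chaperones and folding factors of the endoplasmic reticulum. These 2 groups were named after their values were seen.

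ASNS, or asparagine synthetase (chr7:97851677-97872542, minus strand), stood at 2804, 3431 and 3217 with vehicle and 2692, 2529 and 2776 with atirmociclib at 24 h, and at 2609.6, 2495 and 2379.5 and 979.6, 548 and 845 at 72 h. The groups lay close together at 24 h and far apart at 72 h, for a difference of -1.46 ± 0.18 (adjusted p = 4.4e-07). PCK2, the mitochondrial phosphoenolpyruvate carboxykinase, stood at 3110.2, 3045 and 3231 with vehicle and 2755, 2498 and 2852 with atirmociclib at 24 h, and at 2499.9, 2808 and 2635 and 892, 909 and 893 at 72 h (difference -1.34 ± 0.08, adjusted p = 5.3e-13). CHAC1, which degrades glutathione, had an effect of -0.91 at 24 h and -2.34 at 72 h. SLC7A11, the cystine transporter, was at 4383, 3821 and 4667 with atirmociclib at 24 h and 1561, 1676 and 1537 at 72 h, against vehicle libraries of 5282, 5395 and 5834 and 4112, 4354 and 4411 (difference -1.07 ± 0.12). ATF4 itself differed by -0.64 ± 0.07 and HSPA5, the chaperone BiP, by 0.40 ± 0.05. ASNS shares exons with the overlapping gene ENSG00000284707, so their reads cannot be fully separated.

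PTGFR, a prostaglandin receptor (chr1:78303884-78540701, plus strand), had the lowest adjusted p of the growing falls with a mean of at least 50. It stood at 1539, 1578 and 1715 with vehicle and 1754, 1709 and 1710.3 with atirmociclib at 24 h, and at 1559.7, 1636 and 1662 and 491, 484 and 553 at 72 h. Only the last group lay apart, for a difference of -1.77 ± 0.09 (adjusted p = 3.6e-15). FOS, an immediate early gene, was at 24.1, 7.02 and 15.1 with vehicle and 97.4, 32.0 and 7.59 with atirmociclib at 24 h, and at 182, 289 and 235 and 9.06, 5.46 and 17.05 at 72 h. Its 24 h libraries were spread widely and vehicle was the group that changed, by 3.97 on the log2 scale (adjusted p = 3.7e-04), while the atirmociclib libraries of the 2 times overlapped. The difference was -5.50 ± 1.00 (adjusted p = 1.3e-04). IGF1 and NMU, a growth factor and a neuropeptide, differed by -2.56 ± 0.58 and -1.65 ± 0.36, and IGF1 shares 6693 exonic bases with HELLPAR on the opposite strand, which moved the other way by 0.73. ID1, a target of bone morphogenetic protein signalling, was at 859.7, 676 and 813 with atirmociclib at 24 h and 424, 196 and 186 at 72 h, against vehicle libraries of 560.2, 591 and 685 and 504, 540.1 and 529.5 (difference -1.42 ± 0.33, adjusted p = 0.002).

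Lasting effects were the counterpart. Among the 115 lasting falls, 112 were protein-coding (97.4%), 24 were histones and 9 mitosis genes, and the median effect was -1.54 at 24 h and -1.35 at 72 h. HEXIM1, an inhibitor of the elongation kinase P-TEFb, stood at 1331, 1201 and 1356 with vehicle and 427, 441 and 497 with atirmociclib at 24 h, and at 1524, 1578 and 1431 and 637, 629 and 673 at 72 h. Its groups did not overlap at either time. The difference of 0.29 ± 0.09 (adjusted p = 0.018) no longer passed without replicate 1 of atirmociclib at 24 h, replicate 3 of vehicle at 24 h or replicate 3 of either group at 72 h (0.24 to 0.26, adjusted p of 0.053 to 0.063). It also did not pass with the 12 libraries alone (adjusted p = 0.076, or 0.094 with the replicate block).

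Of the 24 lasting rises, RLN1 and RLN2, the relaxin genes, and BMPR1B, a receptor for bone morphogenetic proteins, had the largest effects. RLN1 stood at 222, 202 and 265 with vehicle and 898, 851 and 832 with atirmociclib at 24 h, and at 105, 94.9 and 97.3 and 619.8, 582 and 598 at 72 h. Both groups dropped with time and stayed apart, with effects of 1.91 and 2.59. RLN2 rose by 2.07 and 2.32, and BMPR1B by 1.42 and 1.86.

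Small but broad shifts were seen in the machinery of translation and respiration. At 24 h atirmociclib raised 77 of 78 cytosolic ribosomal protein genes, against 18% of all genes, with a median of 0.387. By 72 h 12 were raised and 9 lowered, both under the 20.2% and 19.6% of all genes, with a median of -0.011. The difference was lower in 71 of 78, against 9.96% of all genes, with a median of -0.392, or -0.28 after quantile normalisation. In none was it higher, against 11.7%, also at an unadjusted p of at most 0.05 (limma). RPS16 stood at 13528, 13503 and 14099.6 with vehicle and 18316, 17852 and 16869 with atirmociclib at 24 h, and at 15665, 15108 and 15064 and 13786, 12721 and 13079.5 at 72 h. Every atirmociclib library was above vehicle at 24 h and below it at 72 h, for a difference of -0.58 ± 0.07 (adjusted p = 7.7e-08). The vehicle itself had risen in 28 of the 78 genes between the times, against 3.85% of all genes.

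Genes of ribosome biogenesis had a lower difference in 26 of 50 and a higher one in 1, against 9.96% and 11.7% of all genes. The median was -0.282. UTP20, of the small subunit processome, was the lowest, at -0.71 ± 0.08. Nuclear-encoded subunits of the respiratory chain had a lower difference in 36 of 75 and a higher one in none, against the same shares. None was higher at an unadjusted p of at most 0.05 either (limma). Atirmociclib had raised 51 of the 75 at 24 h, against 18% of all genes. At 72 h it raised 12, under the 20.2% of all genes. NDUFA6, a subunit of complex I, was at 995, 925 and 1004 with atirmociclib at 24 h and 712, 656 and 684 at 72 h, against vehicle libraries of 932, 925 and 1047 and 1150.2, 981 and 1048 (difference -0.64 ± 0.10). The 13 mitochondrially encoded subunits had 1 higher difference, MT-ND5 at 0.21 ± 0.06, and none lower (limma, with 2 higher and 1 lower at an unadjusted p of at most 0.05). MT-ND5 did not pass after quantile normalisation (0.17, adjusted p = 0.13).

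In cholesterol synthesis, atirmociclib raised 18 of 24 members at 24 h and 7 at 72 h, against 18% and 20.2% of all genes. The difference was lower in 13 and higher in 1, TM7SF2, against 9.96% and 11.7%, with a median of -0.313. HMGCS1, which makes the precursor of mevalonate, was at 1589, 1407 and 1376 with vehicle and 2056, 2260.1 and 2392 with atirmociclib at 24 h, and at 1504, 1697 and 1555 and 1779, 1649 and 1663 at 72 h. Its groups were apart at 24 h and overlapped at 72 h (difference -0.52 ± 0.13, adjusted p = 0.0036). PMVK and ACAT2 differed by -0.72 ± 0.13 and -0.60 ± 0.09.

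The difference can come from either side of the comparison, so the change over time was examined within vehicle and within atirmociclib. Vehicle changed little: 33 genes (0.196%) were called higher and 140 (0.831%) lower at 72 h than at 24 h, and the 33 became 20 without replicate 2 of vehicle at 72 h. With atirmociclib, 655 (3.89%) were called higher and 238 (1.41%) lower. Fading falls had a median change of -0.04 under vehicle and 1.42 under atirmociclib, and 215 of the 227 rose past the adjusted p under atirmociclib while 5 rose and 6 fell under vehicle. Growing rises differed in this respect, with a median of -0.71 under vehicle and 1.03 under atirmociclib. Of these 217 genes, 79 fell past the adjusted p under vehicle, against 3.64% of all genes, and 146 rose under atirmociclib, against 17%. Growing falls had medians of 0.37 and -1.23. Since the classes were chosen on the difference, these splits are descriptions.

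**Figure D3:**
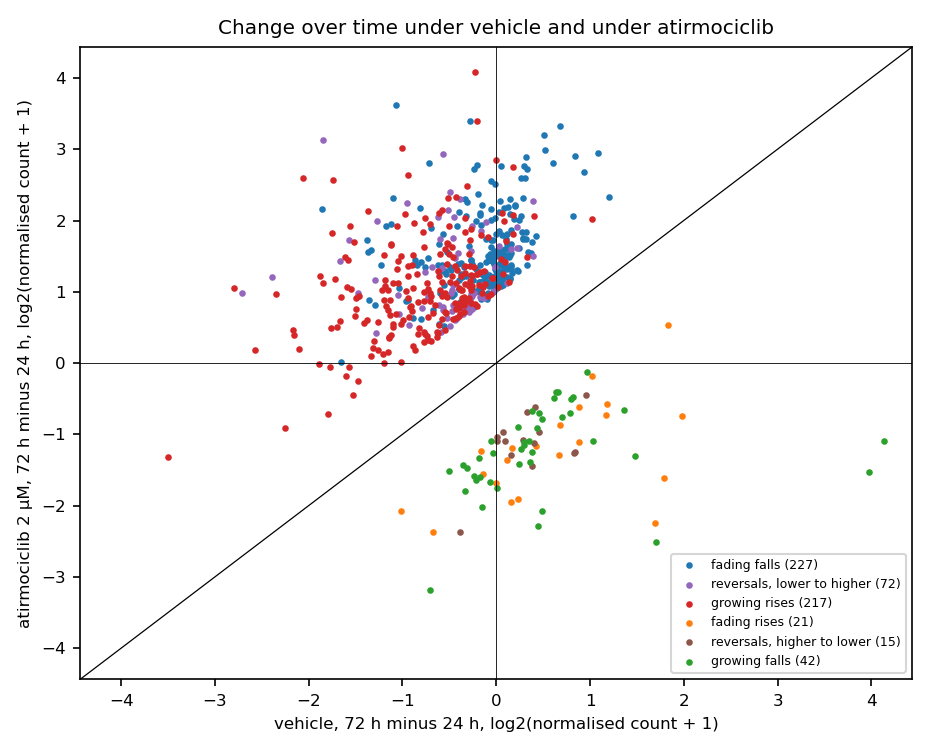
Change from 24 h to 72 h under vehicle (horizontal axis) and under atirmociclib at 2 µM (vertical axis) for the genes of 6 classes, as log2 differences, with the diagonal marking equal changes. Fading falls cluster above 0 on the vertical axis and around 0 on the horizontal axis, at medians of 1.42 and -0.04, whereas growing rises lean to the left, with a vehicle median of -0.71.

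The course of the effect was then compared with that of 3 other treatments of the series: AU2-94 at 2 µM, another CDK4 inhibitor, ribociclib at 2 µM, which inhibits CDK4 and CDK6, and atirmociclib at 1 µM. Each test set the change between times under atirmociclib at 2 µM against the change under the other treatment, so the vehicle libraries cancel out and p-values were adjusted over all genes within each of the 3 comparisons. Against AU2-94, 61 genes (0.362%) were called with a higher and 28 (0.166%) with a lower change. Against ribociclib the counts were 19 (0.113%) and 8 (0.0475%), and without replicate 1 of atirmociclib at 72 h they were 9 and 5. The 8 were also 5 and 4 without replicate 2 or 3 of that group. Against atirmociclib at 1 µM they were 2 (0.0119%) and 4 (0.0237%), a comparison within the same agent at matched times. With the replicate block these became 1 and 2, and leaving out 1 library gave 0 to 4 of each.

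Among the mitosis genes, the change from 24 h to 72 h was set against that under AU2-94 at 2 µM. It was lower with atirmociclib past the adjusted p in 24 of 84 and higher in none (limma, with 1 at an unadjusted p of at most 0.05), against 1.58% and 2.94% of all genes. Against ribociclib it was lower in 4 and higher in none, with 2 at an unadjusted p of at most 0.05. Of all genes, 0.386% were lower and 0.807% higher past the adjusted p in that comparison. Against atirmociclib at 1 µM it was lower in 2 and higher in none, again with 2, where 0.0593% and 0.0772% of all genes passed. Replication-dependent histones were lower against AU2-94 in 15 of 48 and higher in 3. PTTG1 had the lowest change of the mitosis genes examined singly. It went from 634, 445 and 485 to 411, 415 and 390.4 normalised counts with atirmociclib at 2 µM, from 374, 386 and 409.6 to 1087, 966 and 1164 with AU2-94, from 408, 392 and 348 to 738, 1083 and 831 with ribociclib and from 373, 393 and 407 to 585, 552 and 638 with atirmociclib at 1 µM. Every 72 h library was above every 24 h library in the other 3 treatments, and below every 24 h library under atirmociclib at 2 µM. The change differed by -1.80 ± 0.15 against AU2-94 (adjusted p = 4.2e-09), -1.54 ± 0.15 against ribociclib (adjusted p = 2.9e-07) and -0.94 ± 0.15 against the lower dose (adjusted p = 0.007).

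BIRC5, or survivin, which attaches chromosomes to the spindle, went from 527, 499 and 397 to 484, 727 and 625 with atirmociclib at 2 µM and from 317, 437 and 512 to 1366, 1239 and 1076 with AU2-94 (change -1.20 ± 0.23, adjusted p = 0.0012). It was likewise chosen after its values were seen. For MKI67 the change against AU2-94 was -0.15 ± 0.10 (95% interval -0.35 to 0.05) and against ribociclib -0.01 ± 0.10 (95% interval -0.21 to 0.20), and neither passed the test. CLSPN went the opposite way from PTTG1: it rose from 70.3, 55.8 and 53.5 to 413, 323 and 335 with atirmociclib at 2 µM, from 321, 342 and 341 to 879, 758 and 1026 with AU2-94 and from 259.9, 205 and 257 to 701, 729 and 731 with ribociclib. Atirmociclib began from lower levels and remained below both agents at 72 h in every library. The change was larger by 1.16 ± 0.17 than under AU2-94 (adjusted p = 5.2e-05) and by 0.97 ± 0.17 than under ribociclib (adjusted p = 0.0018), and differed by -0.03 ± 0.17 from the lower dose (95% interval -0.38 to 0.33).

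For genes of the androgen response, the change was higher than under AU2-94 in 17 of 54, against 2.94% of all genes. It was lower in none, against 1.58% (limma, with 1 at an unadjusted p of at most 0.05). TMPRSS2 rose more by 0.40 ± 0.10 (adjusted p = 0.018), whereas the change of KLK3 against AU2-94, 0.22 ± 0.07, did not pass (adjusted p = 0.078). Against ribociclib the changes of KLK3 and TMPRSS2 were 0.05 ± 0.07 (95% interval -0.10 to 0.20) and 0.16 ± 0.10 (95% interval -0.04 to 0.37). Of 17 androgen-repressed and glucuronidation genes, the change was higher in 6 against AU2-94 and in 7 against ribociclib, against 2.94% and 0.807% of all genes. Of the ATF4 response, ASNS differed by -0.77 ± 0.18 and PCK2 by -0.82 ± 0.08 against AU2-94 (adjusted p = 0.0095 and 1.6e-07). Against ribociclib PCK2 differed by -0.42 ± 0.08 (adjusted p = 0.0054), and ASNS, at -0.68 ± 0.18, did not pass (adjusted p = 0.056). In that list of 46 the change was higher in 6 and lower in 7 against AU2-94, where 2.94% and 1.58% of all genes passed.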

How the data were processed

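RNA was measured in 36 LNCaP libraries by total RNA sequencing, 3 biological replicates in each of 12 groups, and groups were taken from the sample labels. The authors deposited 1 table of normalised counts per gene, treated here as a signal: per the labels and the study's methods, reads were aligned to GRCh38 with STAR 2.6.1d and scaled with DESeq2 (submitters' processing notes). The annotation release, the read counter and strand use are not given in the sources used here. Low values were whole multiples of a common step in 13.1% to 60.2% of cases (tolerance 0.1), so reads were not recovered and no count test was run.

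Values were analysed as log2(normalised count + 1) for genes at 10 or more in at least 3 libraries, with limma 3.58.1 in R 4.3.3 (all 36 libraries as 12 groups, trended prior, Benjamini-Hochberg adjustment per contrast over 16850 genes). A call needed an adjusted p of at most 0.05 and a log2 value of at least 1 in size. The log2 scale with a pseudocount understates changes of low genes. Positions are from GENCODE release 44, promoters from RefSeq, and near-identical stretches from BLAST 2.17.0. Tables and figures were made with Python 3.11.15, pandas 2.3.3, numpy 2.4.6 and matplotlib 3.10.9.

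The members, gene lists and tests were chosen with earlier results of these data known. Genes were named by rule: in each fading, growing and reversal class the 4 with the largest difference among those with a mean of at least 50, per list up to 3 with the largest difference past the adjusted p and that mean, the 3 largest lasting effects per direction, and 13 fixed genes. A Y-linked gene that the rule picks is not described, and other genes named are list members chosen after their values were seen. The sample titles give each library a replicate number, by which libraries of different groups can be paired. The deviations of same-numbered libraries had a mean correlation of 0.00167 over 18 pairs, from -0.0583 to 0.0922, against -0.000848 for 36 differently numbered pairs. The fit had no replicate block, which was an alternative. Other alternatives were pseudocounts of 0.5 and 8, no filter or a mean of at least 100, other scalings, the 12 libraries alone, no trend and each library left out. On simulated data with normal noise and no other effects, the difference was changed by 1.5 in 200 of 16534 genes. These 200 were drawn only from genes whose mean on the log2 scale was above that of 50 normalised counts. Of them 92.5% were recovered, and 99.5% of 186 calls were among them. Recovery in lower genes was not tested. p-values measure the spread between these replicates. Some list members are counted but not reported here by name.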

Additional observations from a re-analysis of the deposited data

Results flagged for a closer look

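The effect of atirmociclib at 2 µM differed between the times in 619 genes that were higher and 109 that were lower at 72 h, by the limma test of the difference itself. Some genes described here were also called, past the adjusted p and the size threshold, for a different change over time than under AU2-94 at 2 µM. These were CLSPN (1.16), ID1 (1.79), MMP7 (2.13), TUBA1A (1.19) and WIPI1 (1.12), whose change was higher under atirmociclib, and NMU (-1.79), PTTG1 (-1.80) and BIRC5 (-1.20), whose change was lower. Against ribociclib at 2 µM the same test picked CCNE2 (1.35) and POLN (1.26) as higher and NMU (-1.48), PTTG1 (-1.54) and BIRC5 (-1.14) as lower. PTTG1 and BIRC5 were chosen after their values were seen. POLN and CCNE2 share exonic bases with HAUS3 and INTS8.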

How the results depend on the processing

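With 1 library left out, 1222 of 1260 values of the 105 named genes kept their direction and side of the threshold, 36 lost the call (8 genes), 2 gained it and 0 reversed. Under the other settings 1121 of 1143 kept both, 20 no longer passed (7 genes), 2 came to pass and 0 reversed. Leaving out 1 library gave 548 to 627 higher and 84 to 116 lower differences, and the replicate block gave 614 and 107. The block ended the call of FRAS1 and changed the counts against atirmociclib at 1 µM. With a mean of at least 100, which tests fewer genes, differences numbered 312 higher and 35 lower, effects at 24 h 60 and 442, effects at 72 h 226 and 331, changes under vehicle 7 and 34, changes under atirmociclib 253 and 45, fading falls 139, fading rises 2, growing falls 16, growing rises 82, against AU2-94 27 and 13, against ribociclib 11 and 3, and 2 lower against atirmociclib at 1 µM. A pseudocount of 8 gave 121 higher at 24 h, 80 lower under vehicle, 434 and 101 under atirmociclib, 11 fading rises, 27 growing falls and 2 lower against atirmociclib at 1 µM. Quantile normalisation gave 193 lower differences, 40 fading rises, 68 growing falls, 42 and 25 reversals, and 1 and 2 against atirmociclib at 1 µM. Without a filter, 56 genes were higher under vehicle, 4 lower against ribociclib, and 1 and 0 against atirmociclib at 1 µM. The 12 libraries alone gave 13 fading rises, and with the replicate block 11 fading rises and 85 lower under vehicle. Against atirmociclib at 1 µM, the replicate block over all libraries gave 1 and 2 and no trend gave 0 and 2. Leaving out 1 library gave 20 to 34 higher under vehicle, 12 to 27 fading rises, 9 to 21 and 4 to 8 against ribociclib, and 0 to 4 higher and 0 to 4 lower against atirmociclib at 1 µM. The cause of these moves was not tested beyond the number of genes or libraries each setting holds. The difference of H3C1 no longer passed the adjusted p without any 1 of 5 libraries (0.42 to 0.53). That of OAS3 did not pass without replicate 3 of atirmociclib at 24 h (0.49, adjusted p = 0.071). That of STARD4 did not pass without replicate 2 of vehicle at 24 h (-0.44, adjusted p = 0.076). Low genes limit the counts, since their fold depends on the pseudocount.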

Other observations

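Lysosome and autophagy genes were raised in 23 of 46 at 24 h and 30 at 72 h, against 18% and 20.2% of all genes. The difference was higher in 12 and lower in 3, against 11.7% and 9.96% of all genes. WIPI1, which acts in the formation of autophagosomes, stood at 82.6, 93.3 and 78.7 with vehicle and 53.1, 74.9 and 54.9 with atirmociclib at 24 h, and at 52.2, 105 and 65.2 and 160.2, 110.1 and 152 at 72 h, a difference of 1.44 ± 0.31 (limma, adjusted p = 8.7e-04). Interferon and antigen presentation genes had a higher difference in 7 of 48, near the background, and a lower one in 2. IFI27, an interferon-induced gene, differed by 3.07 ± 0.84. P-TEFb components and regulators had a higher difference in 7 of 21 and a lower one in 1, against the same shares of all genes. Among them, SUPT5H no longer passed the adjusted p without any 1 of 9 libraries (0.28 to 0.42, adjusted p of 0.050 to 0.16). It also did not pass with no filter (adjusted p = 0.076), with the 12 libraries alone (adjusted p = 0.059) or with no trend (adjusted p = 0.065).

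Across all genes the difference was higher in 11.7% and lower in 9.96%, and the counts of the following lists stand against these shares. The p53 targets had a lower difference in 10 of 33 and a higher one in 3, the latter near the background, with TP53I3, an oxidoreductase, at -1.40 ± 0.50 (adjusted p = 0.044) and CDKN1A, the cell cycle inhibitor p21, at -0.62 ± 0.11. Fatty acid synthesis had 4 higher and 5 lower of 21. Immediate early genes had 3 and 4 of 32, which is at the background, and hypoxia and glycolysis genes 1 and 4 of 48. Of those 48, atirmociclib raised 30 at 24 h and 26 at 72 h, against 18% and 20.2% of all genes. Their median difference was -0.0109, with an SD of 0.543 over the numbered replicate sets, so the replicates disagreed on this list. Of the 13 senescence genes tested, 4 were higher and 4 lower. The 12 neuroendocrine and neuronal genes had 3 higher and, in the limma fit, none lower, with 2 lower at an unadjusted p of at most 0.05. The neuroendocrine markers summed to 125 to 749 with atirmociclib at 24 h and to 106 to 189 at 72 h, and their part in this was not tested. Of 16 BMP and TGF-beta targets, ID1 and SMAD9 were lower and none higher, with 3 higher at an unadjusted p of at most 0.05.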
